A study of Mus musculus with 5 samples.

Results

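Cytosolic ribosomal protein genes were taken as the genes whose symbol starts with Rpl or Rps and a digit, together with Rplp0, Rplp1, Rplp2 and Rpsa, leaving out pseudogene names, the Rps6k kinases and the Rpl paralogs that end in l. This gave 80 of the 27726 genes present in all 5 matrices, 46 with large-subunit and 34 with small-subunit names. Of these, 77 belong to the canonical set of ribosomal proteins. The other 3 are Rps27l (a paralog of Rps27), Rps27rt (an intronless copy of Rps27) and Rps19bp1, which encodes a protein that binds Rps19 and is not part of the ribosome. Fau and Rack1 also encode ribosomal proteins but carry other names and are described beside the family.

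The libraries hold group 2 innate lymphoid cells (ILC2s), the lymphocytes without antigen receptors that make IL-5 and IL-13 at barriers such as the lung, sorted from lungs of wild-type C57BL/6 females aged 4 to 8 weeks. Each library held cells pooled from 5 mice. The naïve library came from mice without tumours. The ta-non-activated libraries came from mice 2 and 3 weeks after TC1 cells were implanted under the skin of the right flank. All of these were sequenced fresh. TC1 is a line of lung epithelial cells made tumorigenic with human papillomavirus E6/E7 and an activated ras oncogene. The ta-activated libraries came from the same weeks after implantation, with the sorted cells kept for 1 week in culture with IL-2, IL-33 and TSLP, so that tumour, culture and cytokines separate them from the naïve library together. The ta-non-activated libraries are called fresh below and the ta-activated ones cultured. There is 1 naïve library, and the other groups hold 2 libraries each, 1 for each week, so that any spread between replicates is also a spread between weeks.

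A ribosome is built from a small subunit that reads the mRNA and a large subunit that joins amino acids, and each protein of the particle is needed in nearly equal number. Messages of ribosomal proteins are among the most abundant of any cell, and they typically begin with a cytosine in a run of pyrimidines, the 5′ terminal oligopyrimidine tract, through which mTOR and LARP1 set their translation. Lymphocytes that leave rest enlarge their nucleoli and raise ribosome assembly before they divide. Protein synthesis and mRNA level are separate quantities, and only mRNA was counted here.

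The start windows of 10 members are shown because their messages carry the results below, 6 with a pyrimidine run at the annotated start and 4 without one. Each line gives the 15 bases before and the 15 bases from the RefSeq transcription start on, in GRCm38.p6, 5′ to 3′ on the gene's strand. Capitals mark a run of pyrimidines that holds at least 6 of them in a row counted from a base at most 5 bases from the start.
Rps9 (chr7:3704026-3704055, plus strand): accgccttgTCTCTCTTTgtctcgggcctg
Rpl35 (chr2:39005117-39005146, minus strand): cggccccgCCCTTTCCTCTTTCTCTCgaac
Rpl15 (chr14:18270972-18271001, minus strand): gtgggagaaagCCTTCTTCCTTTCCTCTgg
Rps6 (chr4:86857353-86857382, minus strand): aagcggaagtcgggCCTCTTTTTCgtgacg
Rpl13a (chr7:45128731-45128760, minus strand): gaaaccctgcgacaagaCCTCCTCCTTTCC
Rps27 (chr3:90213634-90213663, minus strand): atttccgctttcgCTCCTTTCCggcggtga
Rps27l (first of its listed starts, chr9:66946071-66946100, plus strand): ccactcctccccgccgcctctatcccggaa
Rps28 (chr17:33824548-33824577, minus strand): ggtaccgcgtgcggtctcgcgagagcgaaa
Rps15 (chr10:80292416-80292445, plus strand): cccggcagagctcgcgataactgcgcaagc
Rpl24 (chr16:55966260-55966289, plus strand): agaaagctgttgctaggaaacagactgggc

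A promoter, from 250 bases before to 50 bases from the start on, was listed for 60 of the 80 members, with 71 starts in all. Such a run was present in 27 of the 71, against 13.7% of the 32851 promoters listed for all genes. Counted by gene, it was present in 26 of 60 members (43.3%) and in 15.9% of all genes listed. The letters CGGAAG on either strand, the core that ETS-family factors bind, were in 45 of the 71 starts (63.4%) against 16.9% of all promoters. The core of the GC box, GGGCGG, was in 60.6% against 35.7%. The core that YY1 binds, GATGGC, was in 23.9% against 14.1%. The TATA box, spelled TATAAA, was in 8.45% against 13.6%. The ETS and GC box words share the letters CGG and can overlap, both strands were read for each word, and a match is a description of the window and not a site. Windows were placed by the annotated start, and where the messages begin was not measured. A window without a run therefore does not show a message without a tract. The 26 members with a run at 1 or more starts and the 34 without had median levels of 3243 and 3552 CPM (a gene's UMIs, counts of single mRNA molecules, per 1000000 UMIs of its library).

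Rps27 and Rps27l, which encode closely related proteins, differ in these letters as well. Their 150 bases before the start are shown because their levels had different orders in the libraries. Capitals mark the ETS, YY1 and GC box cores of the last paragraph, read on either strand.
Rps27 (chr3:90213649-90213798, minus strand): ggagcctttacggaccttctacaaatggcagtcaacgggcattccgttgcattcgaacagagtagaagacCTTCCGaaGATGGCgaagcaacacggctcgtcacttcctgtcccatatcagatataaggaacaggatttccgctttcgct
Rps27l (chr9:66945936-66946085, plus strand): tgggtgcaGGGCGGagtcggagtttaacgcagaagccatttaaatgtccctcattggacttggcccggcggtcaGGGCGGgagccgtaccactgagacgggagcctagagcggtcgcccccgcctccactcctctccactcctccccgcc
The window of Rps27 held the ETS core, read as CTTCCG on this strand, and the YY1 core. The window of Rps27l held the GC box core at 2 places and neither of the others.

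After a filter of 200 genes per barcode and 5% mitochondrial counts, 1601 to 6389 cells a library remained, with 9394957 to 61830293 UMIs. All 80 members were detected in every library. Pairs of libraries shared 1 to 11 cell barcodes. Median UMIs per cell were 4517 in the naïve library and 16090 and 4396 in the fresh libraries of weeks 2 and 3. They were 13636 and 12296.5 in the cultured libraries. By depth, the fresh week 2 library stood apart from the other uncultured libraries. By cell type, the fresh week 3 library stood apart before any result. Of its 1601 cells, 908 (56.7%) lay in clusters counted as another cell type, against 0.445% to 15.5% of cells in the other 4 libraries. Its 12 T-lineage markers summed to 6888 CPM (293 to 1269 elsewhere) and its 14 ILC2 markers to 1707 CPM (9217 to 11949 elsewhere). The 5 clusters of another cell type with at least 50 cells in this library held 10 or 11 of the 12 T-lineage markers and 4 to 6 of the 14 ILC2 markers at 10 CPM or more. A cluster was counted so when its 50 leading genes held at least 3 markers of other cell types and fewer of ILC2s. It was also counted so when more T-lineage than ILC2 markers reached 10 CPM. The naïve clusters of this kind with at least 50 cells each held all 14 ILC2 markers at that level. In summed counts, fewer cells of a type and less RNA per cell cannot be told apart. The naïve matrix was made with another Cell Ranger version (6.0.0) than the other 4 (3.0.2), and version and group cannot be told apart.

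The 80 genes gave between 22.7% and 29.6% of all mRNA molecules counted. Their share of UMIs was 22.7% in the naïve library, 28.4% and 29.6% in the fresh libraries of weeks 2 and 3, and 26.7% and 26.0% in the cultured libraries. The widest exact binomial interval (Clopper-Pearson, 95%) ran from 29.575% to 29.634% in the fresh week 3 library, and such intervals cover counting error only. Both cultured libraries lay below both fresh ones, with differences of -1.71 points in week 2 and -3.62 points in week 3. The group means were 26.3% ± 0.480 and 29.0% ± 0.871 (SD, n = 2 each), and the exact two-sided permutation test gave p = 0.333, the smallest that 2 libraries against 2 allow. The large-subunit genes made up 53.7% to 55.6% of the family's UMIs in every library, a narrower range than that of the total. Without clusters of another cell type the fresh week 3 share was 31.7%, and the naïve share was 23.3%, the fresh week 2 share 28.3% and the cultured shares 26.8% and 26.0%. The means are over pools of mice, so the SDs describe the spread between libraries only. With 2 libraries a side this permutation test gives p = 0.333 whenever the groups do not overlap, whatever their spread.

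The naïve library had the widest spread between cells. Its median cell gave 23.4% of its UMIs to the family, with quartiles at 18.4% and 28.7%, and 377 of 6389 cells (5.90%) lay under 10%. In the ta-non-activated libraries the quartiles lay at 25.9% and 31.0% in week 2 and at 26.7% and 33.0% in week 3, and in each of them 3 cells lay under 10%. The lower share of the naïve library went with another measure of the RNA. Genes with over 50000 bases of intron, 4995 of those annotated, held 25.7% of its UMIs, against 6.83% to 9.55% in the other 4 libraries. Across naïve cells the 2 shares ran against each other (Spearman's rho -0.86, 6389 cells of 1 library that share their depth and total), more closely than in the other libraries (rho -0.45 to -0.65). Counted only against genes with at most 5000 bases of intron, a set that holds 75 of the 80 members, the naïve share was 47.5%, between the 46.2% and 48.1% of the fresh libraries. On that scale the cultured libraries stood at 43.8% and 43.7%, below the other 3. The lower naïve share is therefore present on the scale of all UMIs and absent on this one, and what sets the intron-rich share was not tested.

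**Figure D1:**
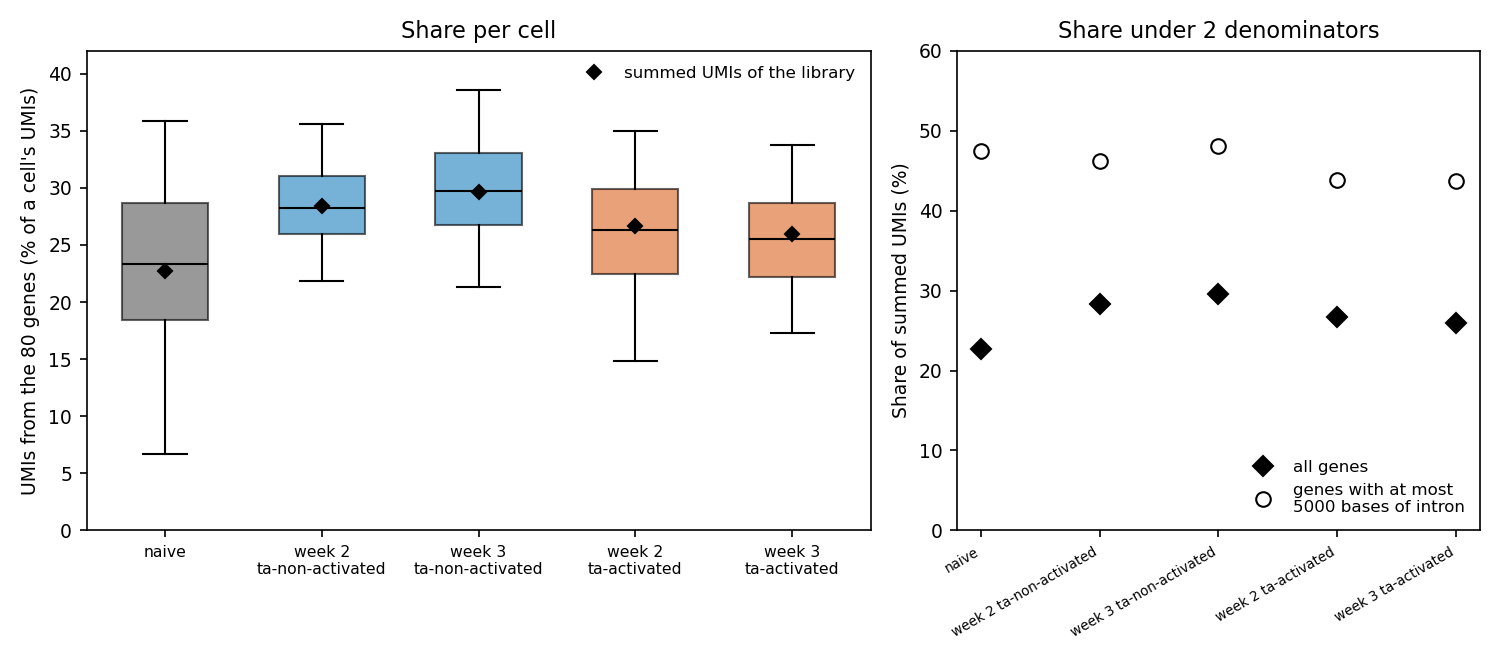
UMIs from the 80 ribosomal protein genes in 5 libraries. Left, per cell as % of the cell's UMIs (box: quartiles and median; whiskers: 5th and 95th percentiles; diamonds: summed UMIs of the library), with the naïve box reaching lowest; right, the share of summed UMIs counted against all genes (diamonds, 22.7% to 29.6%) and against genes with at most 5000 bases of intron (circles, 43.7% to 48.1%), where the naïve library no longer stands lowest.

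Within a library the members spanned more than 2 orders of magnitude. Counts came from 3′ ends, 1 tag per molecule, so levels are not divided by length. Reads that fit several genes are not counted, which makes levels between members with near-identical pseudogenes uncertain. The highest mean levels over the 5 libraries belonged to Rps24 (7258 CPM), Rpl13 (6660), Rps20 (6646), Rpl41 (6346) and Rpl23 (5867). The lowest belonged to Rps19bp1 (53.2 CPM), Rps27rt (58.9), Rpl13a (219), Rpl23a (537) and Rps27l (672), so that 3 of the 5 lie outside the canonical set. Rpl13a, whose protein is known for silencing inflammatory messages in myeloid cells, stood at 222 CPM in the naïve library, 156 and 204 in the fresh and 223 and 291 in the cultured libraries. The median member lay between 2817 and 3710 CPM. The order of the members was well kept between the cultured libraries (rho 0.95 over 80 genes) and least alike between the naïve and the fresh week 3 library (rho 0.61). The fresh week 2 library was closer to the cultured libraries of weeks 2 and 3 (rho 0.93 and 0.88) than to the fresh week 3 library (rho 0.86). These values cover all cells, and 56.7% of fresh week 3 cells lay in clusters of another cell type.

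Most members stayed within 2-fold over the libraries. The highest of the 5 library values was less than 1.5 times the lowest for 27 members and more than 2 times the lowest for 24. No count over all genes is given beside these, so they do not show whether the family was steadier than other genes. Rpl10, Rpl30 and Rpl21, chosen after their values were seen, were the steadiest over all cells, at 1.12, 1.13 and 1.13 times. Without clusters of another cell type Rpl30 stood at 5898 CPM in the fresh week 3 library and 4074 to 4143 CPM in the others. Rpl21 then stood at 4570 CPM against 3306 to 3594 CPM, and Rpl10 lay between 1866 and 2067 CPM in all libraries. Rps27l had the widest range, 17.5 times. Rps19bp1 followed with 5.52 times, Rpl15 with 4.61, Rps15 with 4.57, Rpl24 with 4.42 and Rpl35 with 4.33.

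**Figure D2:**
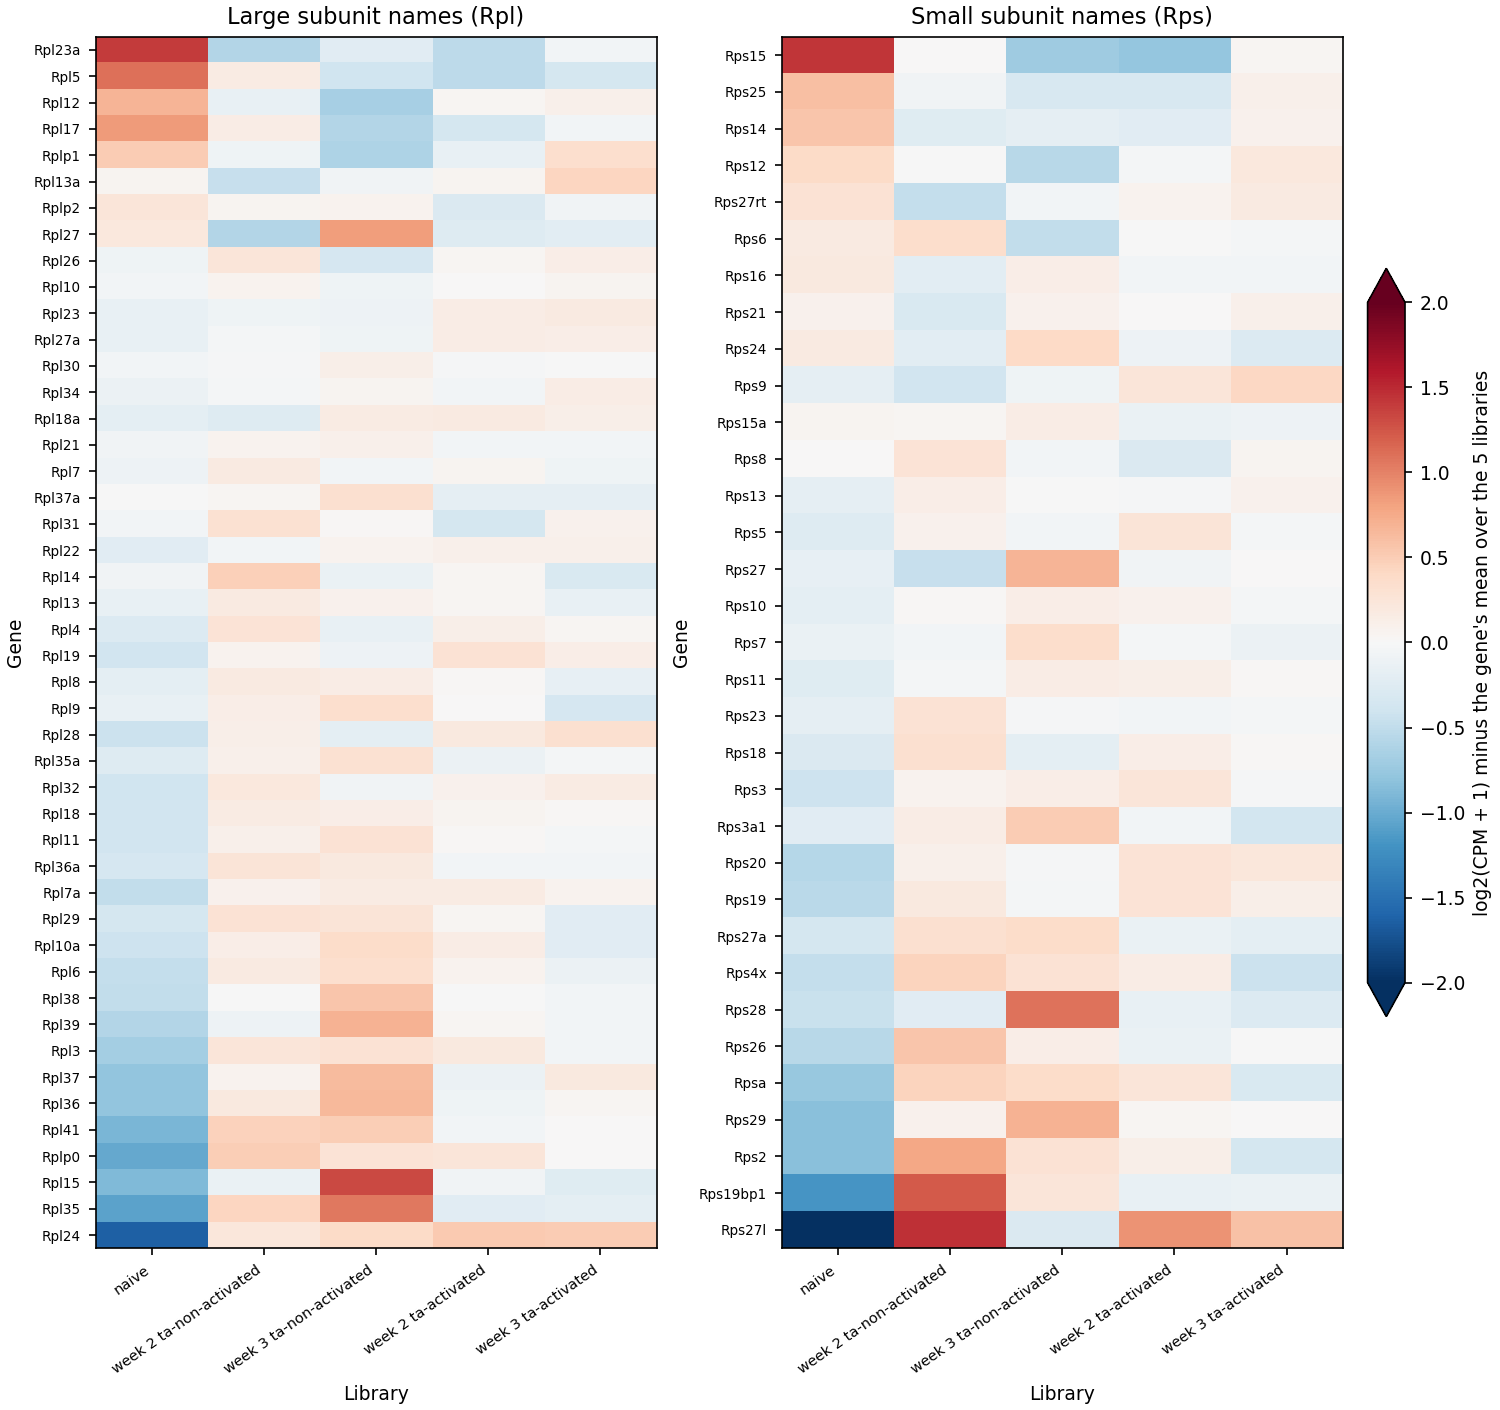
Level of 79 of the 80 genes in each library, as log2(CPM + 1) minus the gene's mean over the 5 libraries (colour), for Rpl genes (left) and Rps genes (right), ordered from highest to lowest naïve level relative to the ta-non-activated mean. Rows are pale for most genes, and the strongest colours fall on Rps27l, Rps19bp1, Rpl24, Rpl23a, Rps15, Rpl5 and Rpl35 and, in the fresh week 3 library, on Rpl15 and Rps28.

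Activation of tumour-associated ILC2s in culture was compared with the fresh cells of the same weeks, the only comparison with 2 libraries a side. No member was called by edgeR's quasi-likelihood test at an adjusted p of 0.05, and no gene of the 12643 tested was (0.00%). At an unadjusted p under 0.05 the test held 1 of the 80 members, Rpl35, beside 16.8% of all genes tested. DESeq2 called 0 members and 8.23% of all genes, and its lowest adjusted p for a member was 0.0862. The median log2 fold change of the members was -0.28 (16 above 0 and 64 below), beside -0.02 for all genes tested, and it was -0.16 (27 above 0 and 53 below) when only library sizes were used for scaling. The groups did not overlap for 29 members with ta-activated lower and 11 with ta-activated higher, where 25.4% and 28.8% of genes with a mean of at least 20 CPM did the same.

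Among members with the same sign in both weeks, the lowest fold changes were those of Rps19bp1, Rpl35, Rps2 and Rps3a1, none of which passed the test. Rpl35, a large-subunit protein at the exit of the peptide tunnel, stood at 2935 and 4496 CPM in the fresh libraries of weeks 2 and 3 and at 1855 and 1904 CPM in the cultured ones. The groups did not overlap, with a log2 fold change of -1.06 (SE 0.32, adjusted p = 0.256 in edgeR). Rps2, at the mRNA entry of the small subunit, stood at 7888 and 5608 CPM fresh and at 4986 and 3608 CPM after culture (log2 fold change -0.77, SE 0.42, edgeR adjusted p = 0.401). Rps3a1 stood at 5081 and 6532 CPM fresh and at 4396 and 3544 CPM after culture. Rps19bp1 stood at 109 and 54.7 CPM fresh and at 41.3 and 41.7 CPM after culture, also without overlap. Without clusters of another cell type its fresh week 3 level was 22.9 CPM against 41.8 after culture, so that its week 3 log2 ratio was 0.84 and its week 2 ratio -1.43.

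The highest fold changes by the same rule were those of Rps9, Rpl13a, Rpl12 and Rps27rt, which did not pass the test either. Rps9, which carries one of the pyrimidine runs printed above, stood at 3348 and 4109 CPM in the fresh libraries and at 5182 and 5790 CPM in the cultured ones. Both cultured values lay above both fresh ones (log2 fold change 0.46, SE 0.29, edgeR adjusted p = 0.453). Rpl12, a protein of the stalk base where elongation factors dock, stood at 2082 and 1450 CPM fresh and at 2380 and 2472 CPM after culture (log2 fold change 0.33, SE 0.39, and -0.03 without the fresh week 3 library). Rps27rt lay between 41.1 and 65.6 CPM in these 4 libraries (log2 fold change 0.30, SE 0.30, and -0.02 without clusters of another cell type).

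Within weeks there was 1 library a side and no test. In week 2, 1 member was higher by at least 1.5-fold after culture (Rps9) and 8 were lower, against 24.7% and 21.4% of the 5737 genes with a mean of at least 20 CPM. In week 3, 5 were higher and 16 lower, against 28.5% and 25.0%. Past 1.5-fold the same way in both weeks were 0 members higher and 2 lower, Rpl35 and Rps2, against 13.0% and 10.3% of genes. The week 3 log2 ratio of Rps2 was -0.47, less than 1.5-fold, without clusters of another cell type. Counted without those clusters, 14 members were higher and 17 lower in week 3, against 1937 and 962 of 5574 genes. This setting was added after the data were seen.

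Leaving out 1 fresh library changed the calls. Without the fresh week 2 library, edgeR called 3 members lower after culture, Rpl15, Rpl35 and Rps28, and 12.1% of all genes. Without the fresh week 3 library it called Rps19bp1 alone among the members and 3.85% of all genes. Such a fit assumes that the lone fresh library varies like the cultured pair. Rpl15, Rps28 and Rpl35 stood high in every cluster of at least 50 cells of the fresh week 3 library, as given below for Rpl15 and Rps28. Rpl35 held 4044 to 4981 CPM in those clusters and at most 3339 CPM in clusters of that size in the other libraries.

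Genes that build the ribosome had a lower median fold change than the genes of its proteins, none of them passed the test, and in week 3 their direction depended on the clusters of another cell type. The 30 ribosome biogenesis genes (nucleolar factors such as Ncl, Fbl and Nop56) were all tested, 0 were called, 19 had an unadjusted p under 0.05 and all 30 had a log2 fold change below 0, with a median of -1.51. Ncl stood at 486 CPM in the naïve library, 2072 and 1113 in the fresh and 554 and 781 in the cultured libraries. The list as a whole summed to 7164 CPM in the fresh week 2 library, 4072 in week 3, 1994 and 2337 after culture and 1682 in the naïve library. Without clusters of another cell type, a setting added after the data were seen, its fresh week 2 level was 7286 CPM and its fresh week 3 level 1684 CPM, against 1982 and 2337 CPM after culture. The log2 ratio of these sums was then -1.88 in week 2 and 0.47 in week 3, where 24 of the 30 genes lay above 0 and the median of all genes was 0.25. Ncl went the same way, with 506 CPM in the fresh week 3 cells that remained and 781 CPM after culture. In the fresh week 3 library the list summed to 1635 and 1732 CPM in the ILC2-like clusters of at least 50 cells and to 3249 to 6552 CPM in the clusters of another cell type. The 78 mitochondrial ribosomal proteins, whose ribosomes translate mitochondrial mRNA, had a median of -0.84, with 77 below 0, 0 called and 21 at an unadjusted p under 0.05. Without clusters of another cell type they summed to 4432 CPM in the fresh week 3 library against 5994 CPM after culture, and 56 of the 78 lay above 0 in that week. Among 17 translation factors and other messages with pyrimidine starts the median was -0.34, with 0 called and 2 at an unadjusted p under 0.05. Npm1 (log2 fold change -1.25, SE 0.47) and Hnrnpa1 (-1.32, SE 0.32) lay lowest in that list. Outside clusters of another cell type Npm1 stood at 4339 and 1132 CPM in the fresh libraries and at 1579 and 1508 CPM after culture, so that its week 3 log2 ratio was 0.41. For 14 genes of growth signalling, among them Myc, Mtor and Larp1, the median was -0.21, with 0 called and 0 at an unadjusted p under 0.05.

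Ribosomal proteins and paralogs under other names had separate patterns. Fau, whose product is cut to Rps30, stood at 3777 CPM in the naïve library, 3003 and 4932 in the fresh and 5154 and 5627 in the cultured libraries. Rack1, a scaffold on the small subunit, lay between 1199 and 1952 CPM. Of the 7 genes of this list that could be tested, 0 were called and 6 had a log2 fold change below 0.

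The naïve library was compared with each fresh ta-non-activated library, with 1 library on the naïve side and therefore no test. Against week 2, 10 members were higher by at least 1.5-fold in the naïve library and 23 lower, where 36.4% and 35.5% of genes with a mean of at least 20 CPM were. Against week 3, 10 were higher and 27 lower, where 33.6% and 32.1% of genes were. Past 1.5-fold in both comparisons, which share the naïve library, were 8 members higher in the naïve library and 18 lower, against 26.6% and 24.4% of genes with a mean of at least 20 CPM. The median log2 ratio of the members was -0.34 against week 2 and -0.33 against week 3. Scaled to the family's own UMIs, which removes the difference in total share, 10 were higher and 10 lower in both comparisons. On that scale 3424 of all 9137 genes with a mean of at least 20 were higher and 1193 were lower.

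Rpl23a, Rps15 and Rpl5 were the members furthest above the fresh tumour libraries. Rpl23a, which lines the exit of the peptide tunnel, stood at 1219 CPM in the naïve library, 308 and 393 in the fresh and 321 and 445 in the cultured libraries. It was 3.95 and 3.098 times as high as in weeks 2 and 3, and above all 4 tumour libraries. Rps15, on the head of the small subunit, stood at 2752 CPM in the naïve library, 1032 and 627 fresh and 602 and 1056 after culture. Rpl5, which carries the 5S rRNA together with Rpl11 and can bind Mdm2, stood at 2401 CPM against 1250 and 849, and at 781 and 874 after culture. Rpl11 had its lowest level where Rpl5 had its highest, with 2768 CPM in the naïve library, 3854 and 4372 in the fresh and 3673 and 3508 in the cultured libraries.

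Rps27l, Rpl24 and Rps19bp1 were furthest below. Without clusters of another cell type the log2 ratio to week 3 was -0.10 for Rps27l and -0.29 for Rps19bp1, both less than 1.5-fold, and -1.78 for Rpl24. Rpl24, a protein of the bridge between the subunits, stood at 738 CPM in the naïve library, 2684 and 2968 in the fresh and 3267 and 3231 in the cultured libraries. The 4 tumour libraries lay close together and all above the naïve one. Rplp0, the base of the stalk, stood at 2564 CPM in the naïve library against 7400 and 6355 fresh and 6226 and 5267 after culture. Its partner Rplp1 was highest in the naïve library, with 7836 CPM there, 5209 and 3582 fresh and 4990 and 6961 after culture, and Rplp2 lay between 2109 and 3040 CPM in all 5 libraries. The stalk genes thus did not keep 1 order between libraries. Without clusters of another cell type Rplp1 stood above Rplp0 in the fresh week 3 library, at 5881 against 5579 CPM. In the fresh week 2 library it then stood below, at 5202 against 7398 CPM. Rpsa, a small-subunit protein also known as the laminin receptor, stood at 2866 CPM in the naïve library, 6602 and 6243 fresh and 5696 and 3910 after culture. Rpl3, next to the peptidyl transferase centre, stood at 1930 CPM in the naïve library and between 2978 and 3761 in the others. Rps6, the substrate of S6 kinase, lay between 1120 and 2019 CPM and Rps19 between 3160 and 5571 CPM.

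**Figure D3:**
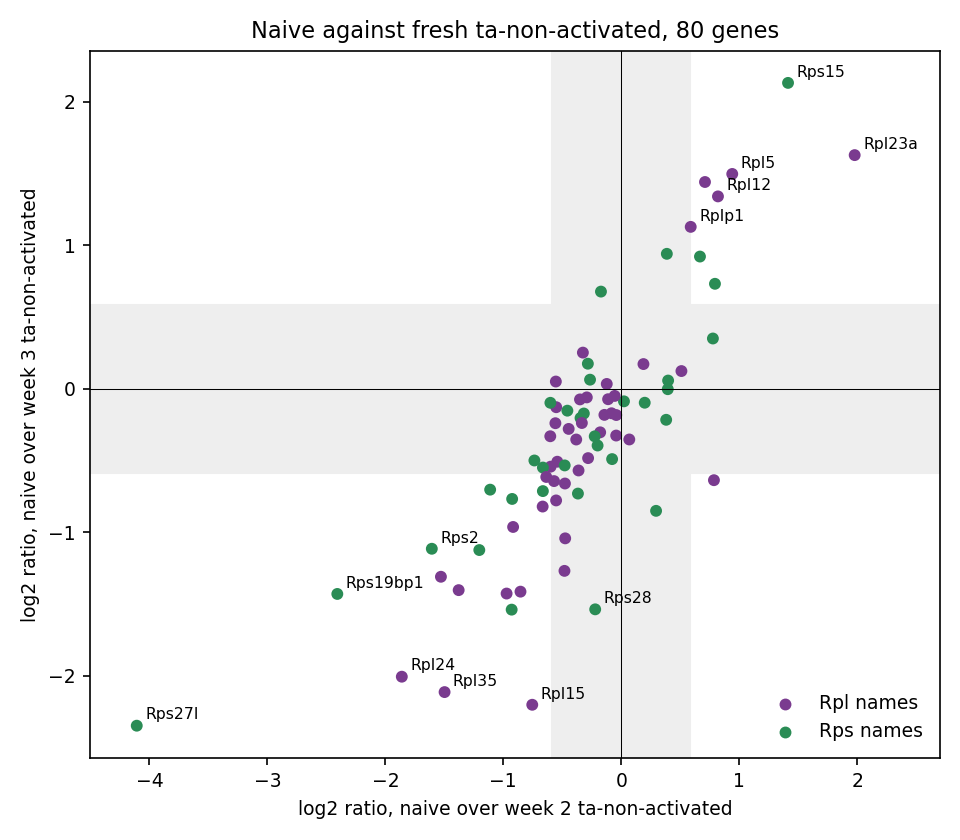
Log2 ratio of CPM (1 CPM added) of the naïve library to the week 2 (x axis) and week 3 (y axis) ta-non-activated library for each of the 80 genes, purple for Rpl and green for Rps names. The grey bands mark less than 1.5-fold, and both comparisons share the naïve library. Rpl23a, Rps15 and Rpl5 lie at the upper right and Rps27l, Rpl24, Rps19bp1 and Rpl35 at the lower left, while Rps28 and Rpl15 lie low against week 3 and within or near the band against week 2.

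The gaps of Rpl24 and Rpl23a were present in every naïve cluster of at least 50 cells, 3 clusters of another cell type included. In these 9 clusters Rpl24 ranged from 586 to 989 CPM, under the lowest cluster of any other library (2384 CPM). Rpl23a ranged from 1087 to 1402 CPM in naïve clusters and from 250 to 588 CPM in clusters of the other libraries. Only the naïve matrix came from Cell Ranger 6.0.0, so that group and processing cannot be told apart here, and the cause was not tested.

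The fresh week 3 library had its own set of high members, chosen here after their values were seen. Rps28 stood at 5282 CPM there and between 1821 and 2230 CPM in the other 4 libraries. Rpl15 stood at 1899 CPM there and between 412 and 722 CPM elsewhere. Rpl39 was at 8336 CPM against 3461 to 5294, and Rpl27 at 1208 against 450 to 777. Of the 80 members, 8 were at least 1.5-fold higher in this library than in week 2 and 6 were lower, against 26.1% and 24.0% of genes. Between the cultured libraries 1 member was higher by that fold in week 3 (Rps15) and 0 were lower, against 9.38% and 5.26% of genes. Clusters of at least 50 cells in the fresh week 3 library, ILC2-like ones and those with more T-lineage than ILC2 markers alike, held Rps28 between 4851 and 5818 CPM and Rpl15 between 1481 and 2260 CPM. The other 4 libraries had no cluster of that size above 3312 CPM for Rps28 or above 898 CPM for Rpl15. The difference was thus one between libraries in every cluster, and its cause was not tested.

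Other members followed the cell type within that library. Its 2 ILC2-like clusters of at least 50 cells held Rplp1 at 5976 and 5881 CPM, and its 5 clusters of another cell type at 2400 to 3621 CPM. Summed over cells, Rplp1 stood at 5881 CPM in the clusters without another cell type and at 2941 CPM in the rest, with no overlap between the clusters. On the log2 scale Rpl37a, Rps21 and Rps27 were also lower in the clusters of another cell type (-0.88, -0.80 and -0.77), and Rps27l and Rps19bp1 were higher (2.66 and 1.43). Without those clusters Rplp1 stood at 5202 CPM in the fresh week 2 library, and its week 3 log2 ratio of cultured to fresh cells went from 0.96 to 0.24.

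Rps27l, whose human counterpart is a direct target of p53, was the member with the widest range between libraries, and in the fresh week 3 library between clusters as well. Its level was 75.1 CPM in the naïve library (exact 95% Poisson interval 72.1 to 78.1), 1310 and 386 CPM in the fresh and 880 and 711 CPM in the cultured libraries. Naïve clusters of at least 50 cells ran from 52.6 to 155 CPM. The ILC2-like clusters of that size in the fresh week 3 library held 59.4 and 84.7 CPM, within the naïve range. Its clusters of that size with more T-lineage than ILC2 markers held 256.2 to 809 CPM. Its smaller clusters held 79.3 (type 17-like, 32 cells), 99.8 (NK- or ILC1-like, 21 cells) and 142 CPM (ILC2-like, 14 cells). In the fresh week 2 library and both cultured libraries the lowest cluster of at least 50 cells held 444 CPM. Counted without clusters of another cell type, Rps27l stood at 69.0 CPM in the naïve library, 74.2 in week 3 fresh, 1319 in week 2 fresh, and 878 and 711 after culture. The fresh libraries thus differed by -4.13 on the log2 scale (week 3 over week 2) outside clusters of another cell type, with 1 library each. Rps27 itself stood at 2785, 7353, 2223, 2960 and 3097 CPM in the same order.

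Rps27l was set beside Mdm2, the p53 target that limits p53, across clusters of at least 50 cells, a comparison chosen after these values were seen. In the fresh week 2 library the cluster led by Cox6b2 and Crip2, with the p53 targets Phlda3, Trp53inp1, Bbc3 and Plk2 among its 10 leading genes (233 cells), held 1931 CPM of Rps27l, and the other 7 clusters 1127 to 1338 CPM. The same cluster held 231 CPM of Mdm2 (56.2 to 106 in the others) and gave 32.3% of its UMIs to the ribosomal protein family, the highest of these clusters. In the cultured week 2 library the cluster with the most Rps27l (1408 CPM, 63 cells) also held the most Mdm2 (471 CPM) and a family share of 31.0%. In the cultured week 3 library the most Rps27l, 1039 CPM, stood in the cycling-like cluster, which also held the most Mdm2 (142 CPM). Its family share, 23.8%, was the lowest of these clusters in that library. In the naïve library the cluster of 50 cells with the most Rps27l (155 CPM) held the most Mdm2 as well, 79.3 CPM. Its family share, 15.8%, was the lowest of the naïve clusters of at least 50 cells. The fresh week 3 library was the exception, since the cluster with the most Mdm2 there (53.6 CPM) held 362 CPM of Rps27l. Its cluster with the most Rps27l (809 CPM) held 22.5 CPM of Mdm2, near the lowest value there of 19.2 CPM, and a family share of 31.5%. Cdkn1a, the p53 target that halts the cell cycle, was highest in the cluster with the most Rps27l in 1 library, the fresh week 2 one, at 1817 CPM. In the naïve library its highest cluster held 324 CPM and the one with the most Rps27l 307 CPM. After culture these values were 2276 and 1781 CPM in week 2 and 906 and 884 CPM in week 3. In the fresh week 3 library the cluster with the most Rps27l held the least Cdkn1a, 20.4 CPM.

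**Figure D4:**
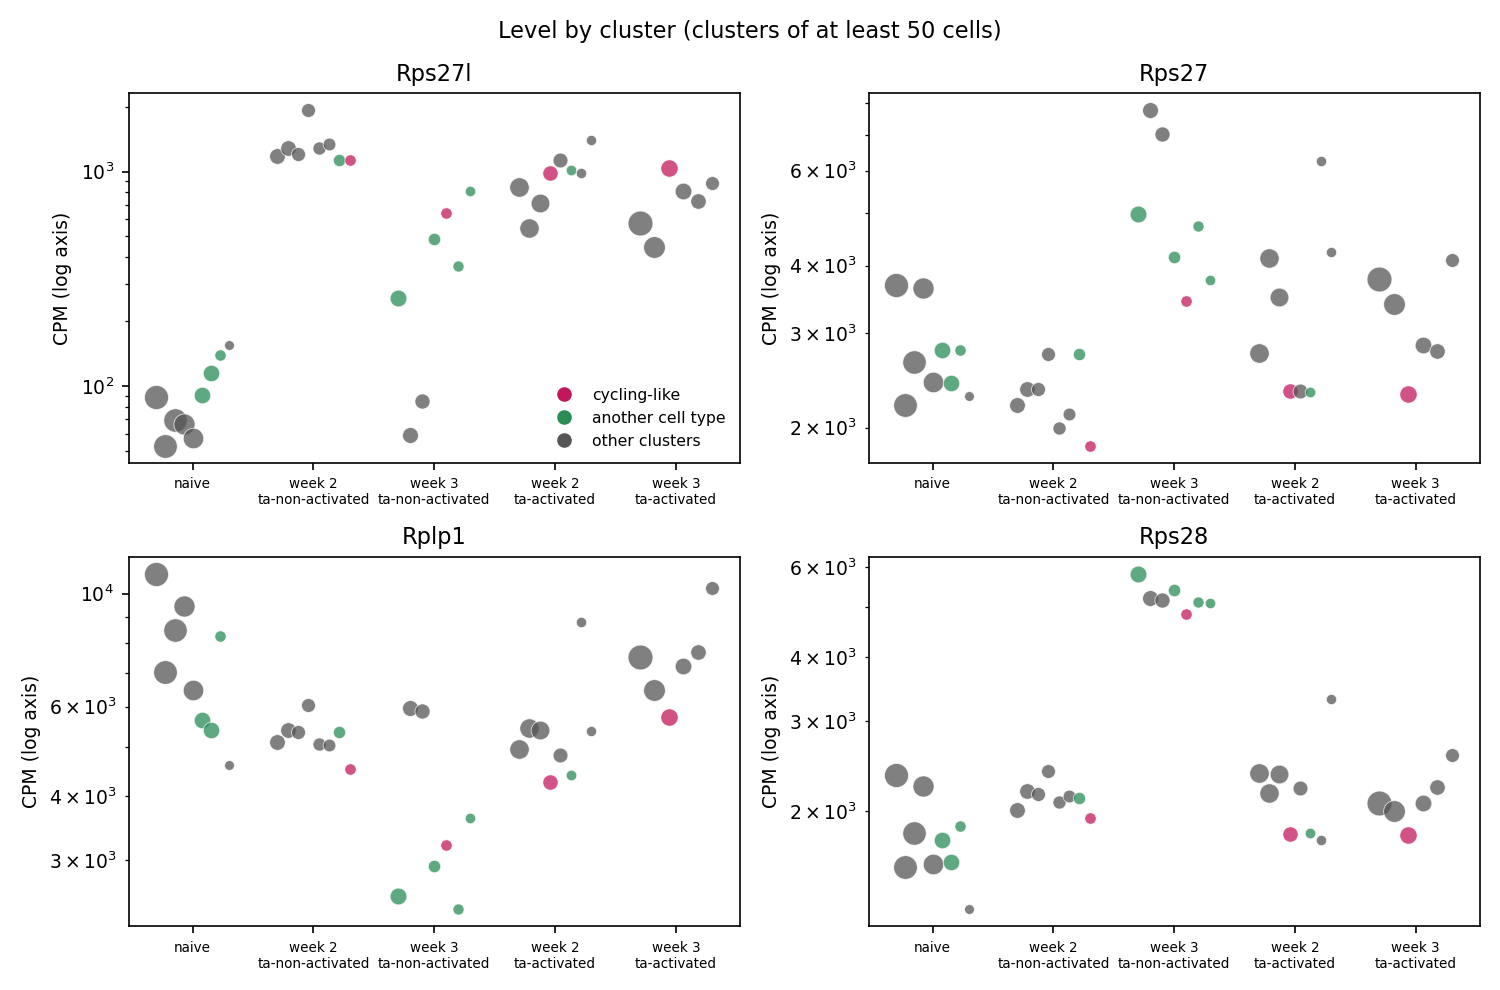
Level in CPM (log axis) of Rps27l, Rps27, Rplp1 and Rps28 in each cluster of at least 50 cells, by library. Points are clusters with an area that grows with the number of cells, magenta for cycling-like clusters, green for clusters counted as another cell type, grey for the rest. The magenta cluster of the fresh week 3 library also held more T-lineage than ILC2 markers. Rps27l splits the clusters drawn for that library, with 59.4 and 84.7 CPM in ILC2-like ones. Those with more T-lineage than ILC2 markers held 256.2 to 809 CPM, whereas Rps28 is high in all of them.

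Cells were clustered within each library without the members among the features, so the family's share in a cluster was not used to form it. Across clusters of at least 50 cells the share ran from 15.8% to 30.3% in the naïve library, 25.4% to 32.3% and 26.8% to 33.0% in the fresh and 22.8% to 31.0% and 23.8% to 34.3% in the cultured libraries. The 2 highest naïve clusters (30.3% and 29.6%) were led by Cxcl1 and Hes1 and by Cst7 and Cd3g, and those led by Ctnna2 and by Alcam stood at 18.7% and 20.05%. Genes with over 50000 bases of intron gave 17.02% and 17.14% of UMIs in the first 2 and 33.0% and 29.8% in the other 2, and their part in the difference was not tested. Counted against genes with at most 5000 bases of intron, the same clusters stood at 52.3%, 51.7%, 45.6% and 45.5%. The highest share of a cluster in the cultured week 3 library, 34.3%, belonged to 228 cells with a median of 2777 UMIs and a median of 0.0610% mitochondrial counts, where the medians of the other 5 clusters were 3.07% to 3.58%.

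**Figure D5:**
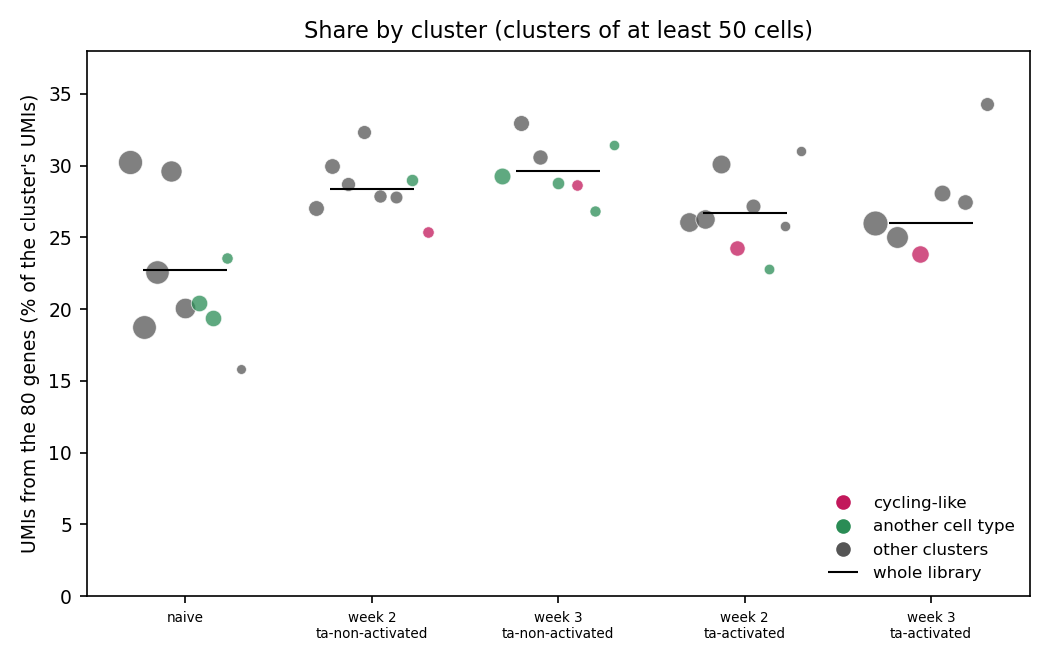
UMIs from the 80 genes as % of all UMIs of a cluster, for clusters of at least 50 cells in each library; point area grows with the number of cells, magenta marks cycling-like clusters, green clusters of another cell type, grey the rest, and the black line the whole library. Each of the 4 magenta clusters lies below its library's line, and the naïve clusters spread widest, from 15.8% to 30.3%.

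Clusters led by mitotic genes gave a lower share of their mRNA to the family than the other cells of the same library, among which the clusters led by replication genes were counted. Cycling-like clusters, with Birc5 and Ube2c among the leading genes of each, held 16.5% in the naïve library (26 cells), 25.4% and 28.6% in the fresh (106 and 104 cells) and 24.2% and 23.8% in the cultured libraries (325 and 485 cells). The other cells of the same libraries held 22.8%, 28.7%, 29.9%, 27.1% and 26.6%. The cycling cells were lower in 5 of 5 libraries, with a mean difference of -3.29 ± 1.84 points (SD), and an exact two-sided sign-flip permutation test over the 5 libraries gave p = 0.0625, the smallest it allows. These cells had more UMIs, with a median of 23152 against 12296.5 in the whole cultured week 3 library, and the part of depth was not tested. With coarser clusters the mean difference was -2.62 points, -0.189 in the fresh week 3 library and -1.26 in the cultured week 2 library, still lower in 5 of 5. In the fresh week 3 library the cycling cells lay in a cluster with more T-lineage than ILC2 markers, and against the other clusters of another cell type there the difference was -0.549 points.

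The lower share was spread over the family. Of the 80 members, 40 were lower in cycling than in other cells in all 5 libraries and 0 were higher in all 5, where 13.5% and 20.7% of genes with a mean of at least 20 CPM did so. Rps27 had the lowest mean log2 ratio, -0.57 ± 0.28 (SD, n = 5), followed by its copy Rps27rt at -0.46 ± 0.22, which shares sequence with it, and Rps24 at -0.42 ± 0.22. At the other end stood Rps27l at 0.60 ± 0.62, higher in 4 of 5 libraries. Mitochondrial ribosomal proteins had the opposite sign, with 40 of 73 higher and 0 lower in cycling cells of all 5 libraries. In the fresh week 3 library these gene ratios set a cluster with more T-lineage than ILC2 markers against all other cells, ILC2-like ones included. Cell type and cycling cannot be told apart there. Clusters of another cell type in that library held less Rps27 (log2 ratio -0.77) and more Rps27l (2.66) than the rest.

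Clusters led by genes of DNA replication (Mcm genes, Dut or Gins2) stood apart from the cycling-like ones, in a comparison chosen after the values were seen. In the fresh week 3 library such a cluster of 69 cells gave 31.5% to the family, against 28.6% in the cycling-like cluster. Both of these clusters held more T-lineage than ILC2 markers. The naïve and fresh week 2 libraries had no cluster with those replication genes among its 10 leading genes at this resolution. In the cultured libraries the values were 27.2% (291 cells) against 24.2% in week 2 and 28.1% (428 cells) against 23.8% in week 3. The biogenesis list was higher in the replication clusters as well, at 6552 against 6266 CPM, 3581 against 1925 CPM and 3564 against 2986 CPM. These values rest on 1 cluster a library, and no test was run on them.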

How the data were processed

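Single-cell 3′ libraries (10x Chromium) of ILC2s sorted as lineage-negative ST2+ CD127+ Thy1.2+ CD45+ cells were analysed, 5 in all. The lineage antibodies included CD3, TCRβ and NK1.1. Per the file headers and the submitters' processing notes, the authors aligned reads to GRCm38 and deposited raw UMI counts per gene and barcode made with Cell Ranger 3.0.2 (6.0.0 for the naïve matrix), and used Seurat 3. The filter kept barcodes with 200 genes or more whose mitochondrial share was under 5%, and the 27726 genes common to all matrices were used. No doublet caller was run, and leaving out the 6% of cells with the most UMIs was an alternative.

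UMIs were summed per library (9394957 to 61830293). Cultured and fresh tumour libraries were compared with the quasi-likelihood test of edgeR 4.0.16 in R 4.3.3 (TMM, filterByExpr, Benjamini-Hochberg over 12643 genes), tested on simulated data, with DESeq2 1.42.0 as an alternative. The SE beside an edgeR log2 fold change is the absolute log2 fold change divided by the square root of the test's F value. Single values used exact permutation tests (scipy 1.17.1). Ratios without a test were log2(CPM + 1) differences, counted past 1.5-fold over genes with a mean of at least 20 CPM. Cells were clustered per library (2000 variable genes without the members, 30 principal components, leidenalg 0.10.2, resolution 0.6). A cluster was named, or counted as another cell type, from marker lists by a rule settled after the clusters were seen. Intron lengths came from GENCODE M21 gene models, and promoters and their coordinates from RefSeq tables of GRCm38.p6, which held 60 of 80 members.

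Members named were the 5 highest and 5 lowest by mean CPM, the 4 highest and 4 lowest by edgeR log2 fold change with 1 sign in both weeks, the 3 highest and 3 lowest in the naïve library relative to the fresh ones, members outside the canonical set, and Rplp0, Rplp1, Rplp2, Rpl5, Rpl11, Rps6, Rpsa, Rpl13a, Rps19 and Rpl3 for their roles. Others were chosen after their values were seen, and some items are not reported here. The members and all gene lists were chosen with earlier results of these data known.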

Additional observations from a re-analysis of the deposited data

Results flagged for a closer look

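Rps15 went opposite ways after culture in the 2 weeks. Its level was 1032 CPM fresh and 602 CPM cultured in week 2, a log2 ratio of -0.78, and 627 CPM fresh and 1056 CPM cultured in week 3, a log2 ratio of 0.75. Each ratio rests on 1 library a side, and the difference between the weeks was not tested. Rps15 was also the only member past 1.5-fold between the cultured libraries, and the naïve level of 2752 CPM lay above all 4.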

How the results depend on the processing

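The difference in share between cultured and fresh libraries kept its sign under every alternative run, from -2.33 to -3.62 points, and from -2.04 to -3.28 points with 1 library left out. The mean of the differences within weeks, -2.66 points, equals the difference of the group means by construction and is no separate check. The naïve library's distance from the fresh mean, -6.25 points, was -7.83 without the 50 most abundant other genes and 0.359 among genes with at most 5000 bases of intron. In the naïve library the share was 22.724% for the canonical set, 23.4% with paralogs and ribosomal proteins of other names added, 23.285% without mitochondrial genes, 23.1% as a mean over cells, 22.6% over all genes of the matrix, 22.3% over all barcodes, 22.4% at a mitochondrial limit of 10%, 23.2% without the 6% of cells with the most UMIs and 23.277% without clusters of another cell type. Without the 50 most abundant other genes the shares were 26.2% (naïve), 33.5% and 34.5% (fresh) and 32.2% and 31.2% (cultured). Among genes with at most 5000 bases of intron they were 47.5%, 46.2%, 48.1%, 43.8% and 43.7% in that order. With that same addition the fresh week 3 and the cultured shares were 30.5%, 27.5% and 26.8%, and without mitochondrial genes 30.533%, 27.5% and 26.9%. Without clusters of another cell type the fresh week 3 share was 31.7%, and as means over cells the cultured shares were 25.8% and 25.4%. Scaled to the family's own UMIs, 10 members were lower in the naïve library in both comparisons (1193 of all 9137 genes), in place of 18. Scaled to the UMIs of genes with at most 5000 bases of intron, 9 members were. That count covers all members, while the 395 of 1506 genes beside it covers genes with such short introns only. On the first of these scales 3 members were higher and 5 lower after culture in week 2 (2871 and 1555 of all 9137 genes), and 12 higher and 5 lower in week 3 (3345 and 1913). In week 3, 14 were higher and 17 lower without clusters of another cell type (1937 and 962 of all 5574 genes). These 3 settings for counts of members were added after the data were seen. Leaving out 1 library, edgeR called 0 to 3 members. The fold change of Rpl12 then ran from -0.026 to 0.81 and that of Rps27l from -0.96 to 1.11, while Rps27l was at 0.054 with the replicate block. Rps27rt was at -0.021 without clusters of another cell type. The causes of these changes were not tested. The deviations of same-week libraries had a correlation of -0.04 over 5737 genes. With 2 libraries a group and 56.7% of fresh week 3 cells in clusters of another cell type, it cannot show whether same-week libraries are paired. The edgeR fit with the replicate block called 0 members and held 1505 genes at an unadjusted p under 0.05 in place of 2120. The gap between cycling and other cells ran from -2.54 to -3.80 points with 1 library left out, with p = 0.125 by the exact sign-flip permutation test, the smallest that 4 libraries allow. Its mean was -2.62 points at clustering resolution 0.3, -2.98 at 1.0 and -2.80 with cells gated on their cycling genes, lower in 5 of 5 libraries each time. It was narrowest in the fresh week 3 library (-0.189, -1.24 and -0.927 points) and the cultured week 2 library (-1.26, -1.85 and -1.73 points). Precision was set by the number of libraries, not by counting.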

Other observations

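Translation factors and other messages with pyrimidine starts did not share 1 pattern across libraries, with 1 naïve library and no test on its side. Tpt1, a small calcium-binding protein, stood at 9669 CPM in the naïve library, 4369 and 4556 in the fresh and 7457 and 6445 in the cultured libraries. Npm1, a nucleolar chaperone, stood at 804 CPM in the naïve library, 4254 and 2403 in the fresh and 1581 and 1508 in the cultured libraries. Eef1a1, the elongation factor that carries tRNA to the ribosome, lay between 5539 and 6938 CPM in all 5. Among paralogs, Rpl22l1 stood at 548 CPM in the naïve library and 958, 1856, 898 and 643 in the others in the order fresh week 2, fresh week 3, cultured week 2 and cultured week 3.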
